A study of Homo sapiens with 4 samples.

Results

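Replication-dependent histone genes are switched on at S phase and give mRNAs that end in a stem-loop in place of a poly(A) tail. The factors that make these mRNAs form a small dedicated set, gathered with the histone genes in nuclear histone locus bodies. NPAT and HINFP act on transcription, CASP8AP2 (also called FLASH) scaffolds the histone locus body and the 3′ processing machinery, SLBP binds the stem-loop, LSM10 and LSM11 belong to the U7 small nuclear ribonucleoprotein (snRNP) that guides cleavage, ZNF473 (also called ZFP100) bridges SLBP and the U7 snRNP, and ERI1 is an exonuclease that trims and degrades the mature end. These 8 genes were chosen by name for that role, out of 59050 gene symbols in the deposited counts, and all 8 passed the filter on low counts that left 17479 genes for testing. The question was whether these factors follow the histone genes, which were high in a single untreated library, or follow doxorubicin.

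The RNA-seq covered 4 libraries labelled as HepG2, an established human liver cancer line. There were 2 libraries of untreated cells (0 h) and 2 of cells given doxorubicin, an inhibitor of topoisomerase II that damages DNA, at 1 µg/ml for 24 h to induce p53. No untreated library was labelled 24 h, so a difference with doxorubicin cannot be told apart from one with time in culture. All were made from poly(A)-selected RNA of 1 cell line, and whether the replicates came from separate cultures was not stated, so the p-values measure the spread between these libraries. Library totals were between 27572740 and 36272180 counts, and levels are given as CPM, the count divided by the library total and multiplied by 1000000. Liver markers did not bear out the label, since ALB (albumin) had at most 3 counts in any library and the summed CPM of 10 liver genes was between 1.02 and 6.06. KRT7, a keratin absent from most hepatocytes, was between 2064 and 2487 CPM. Of 6 markers of other epithelia, which summed to between 3392 and 4081 CPM, KRT7 and KRT17 gave nearly all, while KRT5, KRT19 and TP63 were at most 0.589 CPM and KRT14 at most 7.43 CPM. Of 5 markers of mesenchyme and blood, which summed to between 764 and 1090 CPM, VIM and COL1A1 gave nearly all, while PTPRC and COL1A2 were at most 0.416 CPM and HBB was listed at 0. Untreated replicate 2 stood apart from the other libraries, lying above all 3 of them in 36.6% and below all 3 in 45.0% of the genes tested. The levels of the 8 factors are therefore given for every library, and their fold changes also without that library. A lower level in bulk RNA cannot be told apart from fewer cells that express the gene.

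The target that SLBP and ERI1 bind is shown for the 3 histone genes with the most counts and for HIST1H4I, added after its values were seen as the H4 gene with the most counts. Capitals mark the stem-loop of 16 bases, written as DNA from GENCODE release 44 transcripts (GRCh38). The first 3 are on chr6:27146361-27146386, chr6:26055740-26055764 and chr1:228457364-228457389, all on the minus strand, and the last is on chr6:27139649-27139674 on the plus strand.
HIST1H2BK: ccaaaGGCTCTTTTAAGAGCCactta
HIST1H1C: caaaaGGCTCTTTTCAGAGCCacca
HIST3H2A: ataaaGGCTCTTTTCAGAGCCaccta
HIST1H4I: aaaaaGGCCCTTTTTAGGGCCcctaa
The pattern of GG, any 2 bases, CTTTT, any base, AG, any 2 bases and CC, read on the transcript strand, was found in the transcripts of 64 of 67 annotated histone genes of this class (95.5%) and of 19 of 19171 other protein-coding genes (0.0991%). None of the 8 factors has it in its own canonical transcript (0 of 8).

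The RNA of the U7 snRNP pairs with histone pre-mRNA, and its Sm site, in capitals, is where the ring with LSM10 and LSM11 assembles. It is encoded by RNU7-1 (chr12:6943816-6943878, plus strand, GRCh38).
RNU7-1: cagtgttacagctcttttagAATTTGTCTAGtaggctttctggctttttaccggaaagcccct
This RNA of 63 bases has no poly(A) tail and was listed at 0 counts in all 4 libraries, which at these depths allows up to 0.0827 to 0.109 CPM (3 counts per library, counting error alone). The U7 snRNP was therefore seen here only through the mRNAs of its proteins.

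HINFP recognises an element of H4 gene promoters. The element core GGTCCG, searched on both strands of the 250 bases before the start, was present in 12 of 13 H4 promoters (92.3%), against 9.43% of 35116 promoters of the RefSeq set (GRCh38.p14). It is shown in capitals for HIST1H4I (chr6:27139209-27139268, plus strand).
HIST1H4I promoter: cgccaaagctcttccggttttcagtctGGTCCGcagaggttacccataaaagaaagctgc
The octamer ATTTGCAT, bound by POU2F1, was present in 10 of 15 H2B and 11 of 16 H2A promoters but in 0 of 13 H4 promoters, against 1.63% of all promoters. A match describes letters in the sequence and not a bound site.

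Among the factors of transcription, NPAT and CASP8AP2 were lowest in untreated replicate 2 and HINFP was highest there. NPAT, the coactivator that cyclin E and CDK2 phosphorylate at the start of S phase (GRCh38 chr11:108157215-108222638, minus strand), was at 17.8 and 6.23 CPM in untreated replicates 1 and 2 and at 17.9 and 25.3 CPM in doxorubicin replicates 1 and 2. Untreated replicate 2 was the low library, 3.26-fold below the mean of the other 3, and its count of 180 gave a 95% Clopper-Pearson interval of 5.36 to 7.21 CPM. The doxorubicin libraries lay above both untreated ones, although doxorubicin replicate 1 and untreated replicate 1 differed by less than their counting intervals. The log2 fold change of doxorubicin over untreated cells was 0.68 (standard error 0.60, adjusted p = 0.786 by the edgeR quasi-likelihood fit, Benjamini-Hochberg over all genes tested, as for each adjusted p-value here).

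That value rested on untreated replicate 2. Without it the log2 fold change of NPAT was 0.14 (standard error 0.27, edgeR adjusted p = 0.834). Without untreated replicate 1 it was 1.60 (standard error 0.31, edgeR adjusted p = 1.25e-06), and NPAT was then the 1 member of the 8 that was called. In that fit 41.0% of all genes tested were called, 21.4% as higher and 19.6% as lower in doxorubicin.

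HINFP, the zinc finger factor of H4 genes (chr11:119121580-119136059, plus strand), had the reverse pattern. It was at 19.6 and 36.5 CPM in untreated replicates 1 and 2 and at 24.1 and 27.6 CPM in doxorubicin replicates 1 and 2. Untreated replicate 2 was the high library, 1.54-fold above the mean of the other 3, and the doxorubicin values lay between the untreated ones. The log2 fold change was -0.27 (standard error 0.45, edgeR adjusted p = 0.860). It changed sign to 0.26 (standard error 0.26) without untreated replicate 2.

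CASP8AP2 (chr6:89829894-89874436, plus strand) was at 16.4 and 11.2 CPM in untreated replicates 1 and 2 and at 20.6 and 27.8 CPM in doxorubicin replicates 1 and 2. Both doxorubicin libraries were above both untreated ones, and untreated replicate 2 was again the lowest, 1.92-fold below the mean of the other 3. Its log2 fold change was 0.64 (standard error 0.43, edgeR adjusted p = 0.773). It was 0.41 (standard error 0.27, edgeR adjusted p = 0.415) without untreated replicate 2 and 0.92 (standard error 0.29, edgeR adjusted p = 0.00324) without untreated replicate 1, under the fold threshold of 1 on the log2 scale. Of the 8 factors it was the one whose higher level with doxorubicin did not depend on the scaling, since NPAT overlapped between the groups once TMM factors were applied.

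**Figure D1:**
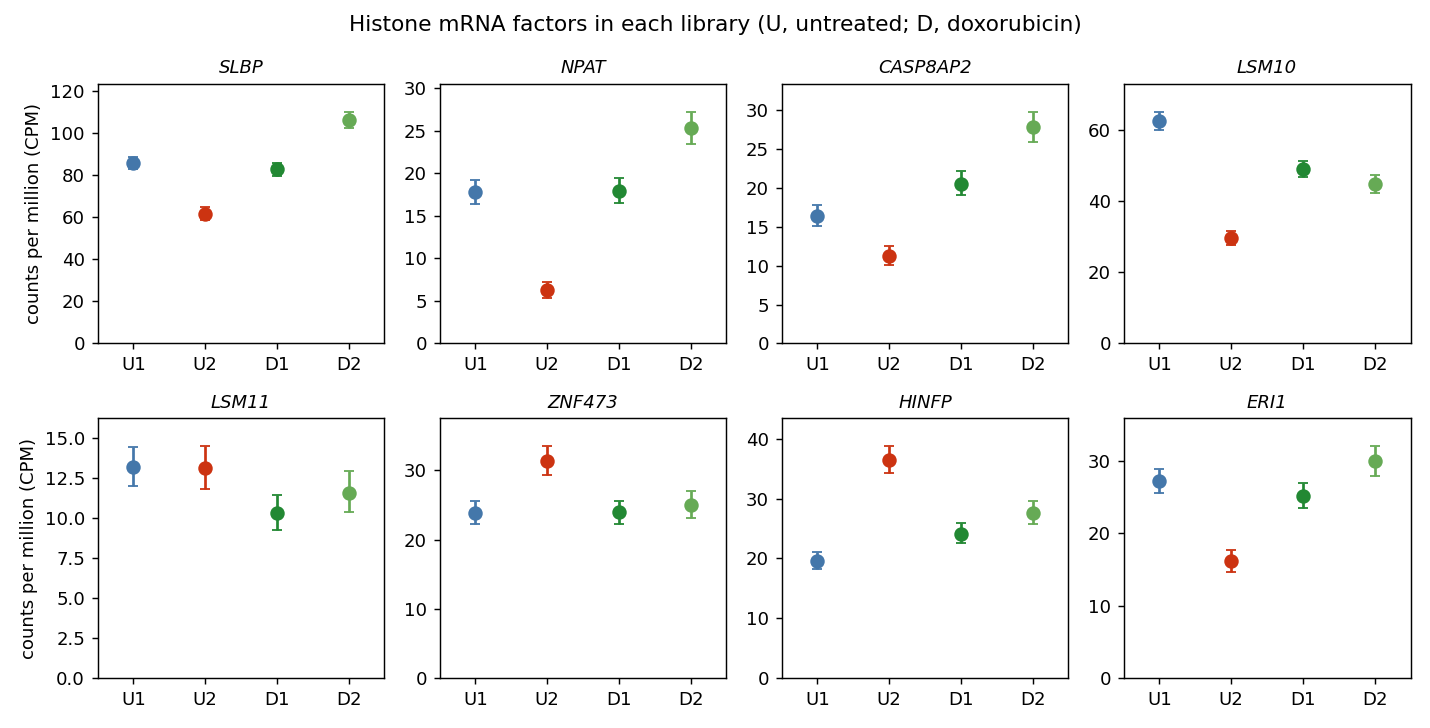
CPM of each of the 8 factors in the 4 libraries (U1 and U2, untreated replicates 1 and 2; D1 and D2, doxorubicin replicates 1 and 2), with 95% Clopper-Pearson intervals that cover counting error alone. U2 is the lowest point for SLBP, NPAT, CASP8AP2, LSM10 and ERI1 and the highest for ZNF473 and HINFP.

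NPAT and CASP8AP2 were, by CPM, the 2 factors above both untreated libraries in both doxorubicin libraries. Both were lowest in untreated replicate 2 and highest in doxorubicin replicate 2, as were SLBP and ERI1. The promoters of NPAT and CASP8AP2 are shown beside each other. The 250 bases before each start come from RefSeq (GRCh38.p14), at chr11:108222639-108222888 (minus strand) and chr6:89829630-89829879 (plus strand). Capitals mark TTGGCGC and TTCCCGC (forms of the E2F site), CCAAT (bound by NF-Y) and GGGCGG (bound by SP1) on either strand.
NPAT: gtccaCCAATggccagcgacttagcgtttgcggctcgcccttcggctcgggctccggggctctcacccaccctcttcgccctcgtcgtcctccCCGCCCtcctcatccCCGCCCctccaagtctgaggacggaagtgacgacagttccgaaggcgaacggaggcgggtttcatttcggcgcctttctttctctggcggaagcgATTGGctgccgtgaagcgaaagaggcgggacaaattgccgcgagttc
CASP8AP2: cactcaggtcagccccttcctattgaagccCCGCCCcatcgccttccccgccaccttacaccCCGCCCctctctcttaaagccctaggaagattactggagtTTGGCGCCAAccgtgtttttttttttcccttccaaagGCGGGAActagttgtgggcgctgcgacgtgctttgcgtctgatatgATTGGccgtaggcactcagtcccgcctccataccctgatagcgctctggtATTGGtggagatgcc
Each promoter held 2 CCAAT and 2 GGGCGG matches. CASP8AP2 also held 2 overlapping TTGGCGC matches and 1 TTCCCGC match, which NPAT lacked. The SLBP promoter, not shown, held 2 GGGCGG matches and none to the other patterns. Promoters of 6 of the 8 factors were in the RefSeq set. Of these, 4 held CCAAT (32.0% of all promoters), 5 held GGGCGG (42.6%), 2 held TTCCCGC (5.52%) and 1 held TTGGCGC (2.56%).

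The start of NPAT lies 406 bases from that of ATM, a DNA damage kinase gene read from the opposite strand. ATM was at 26.2 and 16.9 CPM in the untreated replicates and at 33.02 and 37.8 CPM in the doxorubicin replicates. By CPM the libraries had the same order for ATM, NPAT and CASP8AP2. For NPAT, untreated replicate 1 and doxorubicin replicate 1 were close (17.8 and 17.9 CPM).

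Of the processing factors, SLBP and LSM10 were low in untreated replicate 2, ZNF473 was high and LSM11 was neither. SLBP (chr4:1692731-1712344, minus strand) was at 85.7 and 61.7 CPM in untreated replicates 1 and 2 and at 82.7 and 106 CPM in doxorubicin replicates 1 and 2. Untreated replicate 2 was 1.48-fold below the mean of the other 3, and untreated replicate 1 lay between the doxorubicin libraries. The log2 fold change was 0.20 (standard error 0.35, edgeR adjusted p = 0.872), and without untreated replicate 2 it was -0.0016 (standard error 0.23), so the size seen with all libraries rested on that library. The start of SLBP lies 514 bases from that of TACC3, a mitotic spindle gene on the opposite strand, which was at 185 and 221 CPM in the untreated replicates and at 178 and 161 CPM in the doxorubicin replicates, highest where SLBP was lowest.

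LSM10 (chr1:36391238-36397908, minus strand) was at 62.5 and 29.6 CPM in untreated replicates 1 and 2 and at 49.0 and 44.7 CPM in doxorubicin replicates 1 and 2. The untreated libraries bracketed the treated ones. Its log2 fold change of -0.13 (standard error 0.46, edgeR adjusted p = 0.936) became -0.55 (standard error 0.24, edgeR adjusted p = 0.146) without untreated replicate 2 and 0.48 (standard error 0.25) without untreated replicate 1, the widest disagreement in sign among the 8.

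LSM11 (chr5:157743712-157760709, plus strand), the partner of LSM10 in the same ring, was at 13.2 and 13.1 CPM in untreated replicates 1 and 2 and at 10.3 and 11.6 CPM in doxorubicin replicates 1 and 2. It was the member for which the untreated replicates were close to each other, and both doxorubicin libraries were lower. The log2 fold change was -0.42 (standard error 0.41, edgeR adjusted p = 0.798), and with each library left out in turn it stayed between -0.46 and -0.38. The difference did not pass the test in any of these fits.

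ZNF473 (chr19:50025714-50053414, plus strand) was at 23.9 and 31.4 CPM in untreated replicates 1 and 2 and at 23.9 and 25.02 CPM in doxorubicin replicates 1 and 2. The 3 libraries other than untreated replicate 2 were nearly equal, with a standard deviation of 0.038 on the log2 scale, and untreated replicate 2 was 1.29-fold above their mean. Its log2 fold change was -0.33 (standard error 0.38, edgeR adjusted p = 0.813), and without untreated replicate 2 it was -0.10 (standard error 0.26, edgeR adjusted p = 0.876). ZNF473 overlaps VRK3 on the opposite strand, and the use of strand in counting was not stated. VRK3 was low in untreated replicate 2, at 15.6 CPM against 20.7 to 25.9 CPM in the others.

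ERI1 (chr8:9002147-9116746, plus strand) was at 27.2 and 16.1 CPM in untreated replicates 1 and 2 and at 25.2 and 29.9 CPM in doxorubicin replicates 1 and 2. Untreated replicate 2 was 1.70-fold below the mean of the other 3, which lay close together. The log2 fold change of 0.18 (standard error 0.43, edgeR adjusted p = 0.901) was -0.12 (standard error 0.26) without untreated replicate 2. ERI1 and SLBP had the most similar profiles of any pair of the 8, and NPAT and HINFP the least. The root mean square differences in centred log2 CPM (TMM-scaled) over the 4 libraries were 0.107 and 1.01. Other genes came closer than that pair, with 288 genes (1.66% of those compared) within 0.1 of SLBP and 323 (1.86%) within 0.1 of ERI1.

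Read across the set, doxorubicin gave no call. Of the 8 factors 0 met both thresholds (adjusted p-value under 0.05, fold of 1 or more on the log2 scale in either direction), against 0.00% of all genes (0 of 17479, with 768 genes and 0 of the 8 factors at an unadjusted p-value under 0.05 in edgeR). DESeq2 called 89 genes and the exact test of edgeR 38, with 0 of the 8 in either. The median log2 fold change was 0.03, beside 0.01 over all genes tested, with 4 factors above 0 and 4 below. Both doxorubicin libraries were above both untreated ones for 2 factors (CASP8AP2 and NPAT), against 30.3% of all genes, and below both for 1 (LSM11), against 11.5%. With 2 libraries in each group an exact permutation test of 1 gene cannot go below p = 0.333. Without untreated replicate 2, 871 genes (4.98%) were called, 4.42% as higher and 0.566% as lower in doxorubicin, and 0 of the 8 were among them.

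**Figure D2:**
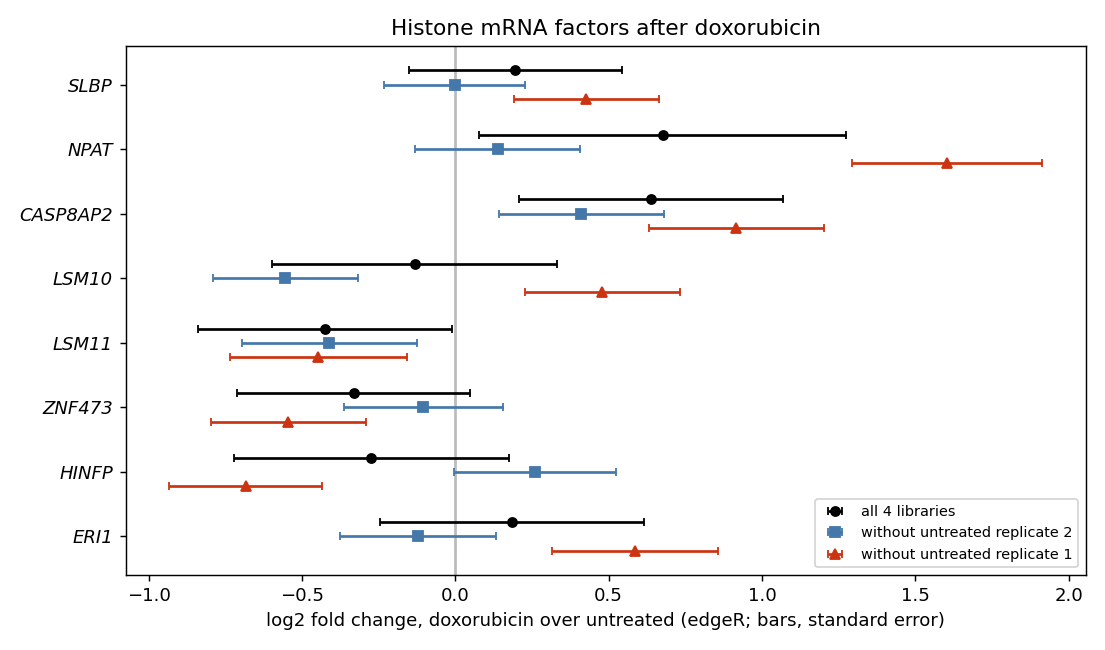
Log2 fold change of doxorubicin over untreated cells for the 8 factors in 3 edgeR fits (all 4 libraries, and without either untreated library), with bars of 1 standard error. The points for LSM11 lie together near -0.42, while those for NPAT run from 0.14 to 1.60 according to which untreated library is used.

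The histone genes themselves separated 1 library from the rest. Of 74 genes of this class, taken by symbol, 50 were tested. Untreated replicate 2 was the highest library in all 50 (36.6% of all genes), with a median log2 ratio to the mean of the other 3 of 3.12. Genes such as HIST1H3A (12 and 320 counts in the untreated, 2 and 1 in the doxorubicin replicates) passed the filter in part through that library. HIST3H3 (4 and 5 against 3 and 6 counts) was not tested, and untreated replicate 2 lay inside its range. The summed level of the 74 genes was 3301 CPM in untreated replicate 2 and between 458 and 564 CPM in the other libraries. The libraries were made from poly(A)-selected RNA, so histone mRNAs that end in the stem-loop may be counted only in part. The median log2 fold change of doxorubicin over untreated cells was -2.54 for the 50 genes and -0.10 without untreated replicate 2. The 34 HIST1 genes tested had a median ratio of 3.11, and all 34 were highest there too. HIST1H2BK, an H2B gene, was at 144 and 427 CPM in untreated replicates 1 and 2 and at 94.6 and 65.8 CPM in the doxorubicin replicates. HIST1H1C, a linker histone gene, was at 93.6 and 242 CPM against 134 and 98.0 CPM. HIST3H2A was at 22.5 and 362 CPM against 18.9 and 17.6 CPM. By class the median log2 ratio was 4.91 for H3, 4.42 for H2A, 2.78 for H2B, 2.77 for H4 and 1.55 for H1. Reads of these near-identical genes may be divided among copies in more than 1 way.

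As a set the 8 factors did not share that direction. In untreated replicate 2, 5 of them (SLBP, NPAT, CASP8AP2, LSM10 and ERI1) were below all other libraries, against 45.0% of all genes. There 2 of them (ZNF473 and HINFP) were above, against 36.6% of all genes, and LSM11 lay inside the range. A gap of at least 2-fold was seen for 1 of the 8, NPAT, which was lower (26.3% of all genes), and 0 were higher by that much (18.3%). Their median log2 ratio was -0.67, beside -0.18 over all genes tested, and the highest of them, HINFP at 0.62, was under the lowest of the 50 tested histone genes, 0.74. This separation holds only for histone genes that passed the filter. HIST3H3, which was not tested, had a ratio of 0.32, below HINFP and ZNF473 (0.37). With TMM-scaled CPM the medians were -0.57 for the factors, -0.08 for all genes and 3.22 for the histone genes, and the same numbers of factors were above and below.

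**Figure D3:**
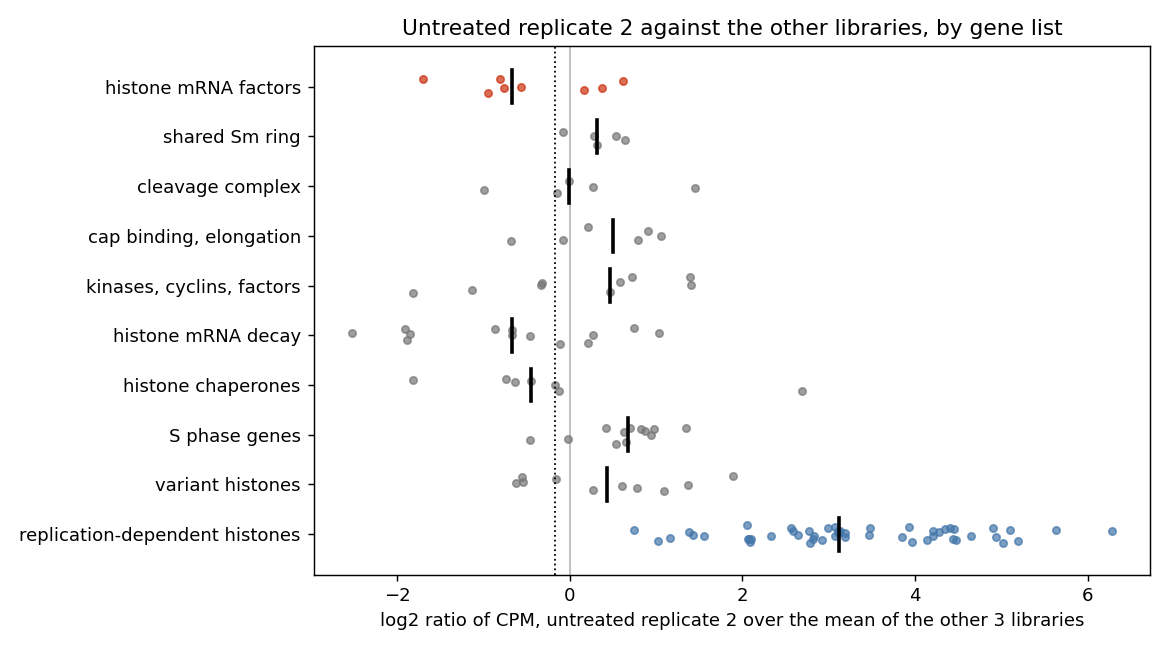
Log2 ratio of CPM in untreated replicate 2 over the mean of the other 3 libraries, 1 point per tested gene and a bar at each list's median; the dotted line is the median of all genes tested (-0.18). Points of the 8 factors run from -1.71 to 0.62 and those of the 50 replication-dependent histone genes from 0.74 to 6.29.

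Transcript length and base composition moved with the ratio in untreated replicate 2. Over 14812 tested genes with an annotated canonical transcript, the median log2 ratio was 0.42 for transcripts under 1000 bases and -0.99 for those of 6000 bases or more. It was -0.65 for transcripts with under 40% GC and 0.14 for those with at least 60%. The Pearson correlation across genes was -0.30 with log2 length and 0.22 with GC content, where genes share the libraries and are not replicates. The lengths used are those of GENCODE release 44, while the counts were made on release 31.

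NPAT (6113 bases, 37.4% GC) and CASP8AP2 (6088 bases, 38.1% GC) belong to the long, AT-rich genes. In the 644 genes of at least 6000 bases and under 40% GC the median ratio was -0.96, with quartiles of -1.67 and -0.38. CASP8AP2, at -0.94, was at that median and NPAT, at -1.71, was just below the lower quartile. ERI1 (4521 bases), at -0.77, was inside the quartiles of its length class, which were -1.35 and 0.12. SLBP (1810 bases), at -0.57, was just inside the lower quartile of -0.59 of its class.

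Against the gradient of length stood 4 factors. LSM10 has the shortest transcript of the 8 (860 bases, 57.8% GC), in a class whose quartiles were -0.37 and 1.11, and its ratio was -0.82. LSM11 has the longest (6567 bases) and was at 0.17, above the upper quartile of -0.20 of its class. HINFP (3185 bases) at 0.62 and ZNF473 (4642 bases) at 0.37 were above the upper quartiles of their classes, 0.47 and 0.12. By class of GC content, LSM11, ZNF473 and HINFP were inside the quartiles, and LSM10 was just below the lower quartile of -0.81. The part of length and composition in the levels of the 8 factors was not tested.

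**Figure D4:**
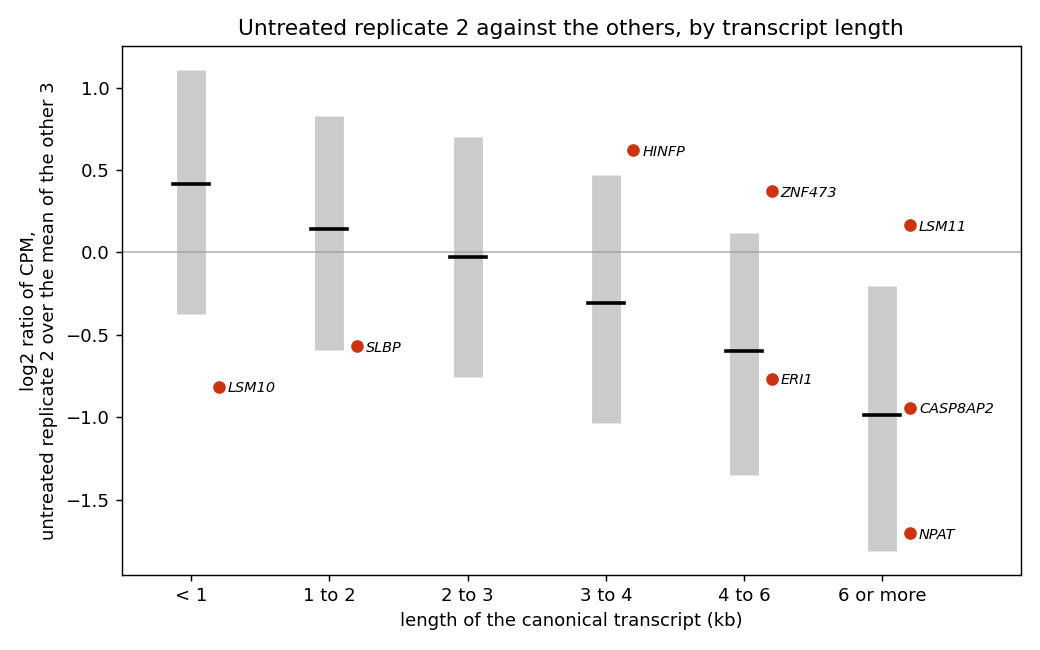
Log2 ratio of CPM in untreated replicate 2 over the mean of the other 3 libraries by length of the canonical transcript. Grey bars span the quartiles of all tested genes in each class and black lines their medians, which fall from 0.42 to -0.99; red points are the 8 factors, of which HINFP, ZNF473 and LSM11 lie above and LSM10 below the bars of their classes.

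Levels between the factors were compared as CPM per kilobase of canonical transcript. On the mean of the 3 libraries other than untreated replicate 2, LSM10 (60.5) and SLBP (50.6) were the most abundant. They were followed by HINFP (7.46), ERI1 (6.06), ZNF473 (5.23), CASP8AP2 (3.55), NPAT (3.33) and LSM11 (1.78). Over all 4 libraries the ranges of SLBP and HINFP did not overlap, nor did those of ZNF473 and CASP8AP2, and every other pair of neighbours in this order overlapped. LSM10 and LSM11 occupy the same ring in the U7 snRNP, and their mRNAs were 60.5 and 1.78 CPM per kilobase.

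The wider histone mRNA pathway was examined through lists of other genes, in which 0 genes had an adjusted p-value under 0.05 (edgeR) between doxorubicin and untreated cells. The counts for each list stand beside shares over all genes tested of 36.6% highest and 45.0% lowest in untreated replicate 2. Of the 17479 genes tested, 8606 had a log2 fold change below 0. The 5 Sm proteins that U7 shares with the spliceosome had a median log2 fold change of -0.52, with 5 of 5 below 0 (median -0.36 without untreated replicate 2), and untreated replicate 2 was above the other libraries for 4 of them. SNRPB, the most abundant, was at 367 and 471 CPM in the untreated replicates and at 311 and 296 CPM in the doxorubicin replicates. The 5 genes of the cleavage complex, led in counts by SYMPK, the scaffold symplekin (254, 224, 227 and 197 CPM in the same order), had 2 genes above and 2 below in untreated replicate 2. Among these CPSF2 was low there (47.4 CPM against 87.0 to 106) and CSTF2T, a single-exon gene, was high (141 CPM against 50.3 to 54.3).

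Of the 6 genes of cap binding and transcript elongation, 4 were highest and 1 lowest in untreated replicate 2, SUPT5H having the most counts (299, 353, 311 and 309 CPM). The 9 kinases, cyclins and factors that act on NPAT or on histone promoters were split, with 5 highest and 4 lowest in untreated replicate 2. YY1 had the most counts (166, 138, 158 and 193 CPM). CCNE2, a cyclin E gene, was at 15.5 CPM in untreated replicate 2 against 5.71 to 6.12 CPM elsewhere. POU2F1, the factor of the H2B octamer, was at 9.80 CPM against 28.6 to 43.4 CPM elsewhere.

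Among 13 tested genes of histone mRNA decay, 9 were lowest and 4 highest in untreated replicate 2, with a median log2 ratio of -0.67. Their median log2 fold change was 0.03, and -0.23 without untreated replicate 2. LSM4, of the ring that binds the uridylated tail, had the most counts (372, 345, 386 and 358 CPM), while TUT4, a terminal uridylyltransferase, was at 5.96 CPM in untreated replicate 2 against 31.4 to 39.1 CPM elsewhere. LSM2 of the same ring was listed at 0 in all 4 libraries.

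Genes of the supply and use of histones were also examined. Of 7 histone chaperones 5 were lowest in untreated replicate 2, while ASF1B, the chaperone with the most counts and tied to proliferation, was at 720 CPM there against 100.6 to 123 CPM elsewhere. NASP, which binds free H3 and H4, was at 150, 122, 126 and 136 CPM. The 12 S phase genes had a median log2 fold change of -0.68 with 12 of 12 below 0, and 10 were lower in both doxorubicin libraries than in both untreated ones (11.5% of all genes). Without untreated replicate 2 the median was -0.47. That library was the highest for 10 of the 12 (36.6% of all genes) and the lowest for 1 (45.0%). MCM7, the most abundant, was at 530 and 846 CPM in the untreated replicates and at 413 and 379 CPM in the doxorubicin replicates. Of the 10 tested variant histone genes, untreated replicate 2 was highest for 6 (36.6% of all genes) and lowest for 4 (45.0%). H3F3B was among the 6 (1287 CPM against 467 to 535).

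RNAs without a poly(A) tail were also examined. Of 10 such RNAs 5 were listed at 0 in every library and 3 were tested. SNORD3A was at 35.9 CPM in untreated replicate 2 against 5.89 to 8.20 CPM elsewhere. RN7SL1 was at 135 CPM against 52.6 to 91.2 CPM, and RMRP lay inside the range (14.2 CPM against 10.8 to 18.2). TERC had 4 and 4 counts in the untreated and 0 and 0 in the doxorubicin replicates, and RNU4ATAC had 1 and 10 against 1 and 6. These 2 RNAs were too low to be tested, and by CPM both were highest in untreated replicate 2. Their part in the level of the histone genes was not tested.

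For each factor the genes with the most similar profile were taken over the 4 libraries, by the root mean square difference of centred log2 CPM among 17325 genes with a count in every library. These were CAND1 and PPP4R3A for SLBP, ZCCHC7 and ITCH for NPAT, FCHO2 and SATB1 for CASP8AP2, MLX and PCAT7 for LSM10, CENPL and PIP5K1A for LSM11, RECQL4 and MED6 for ZNF473, AL353748.3 and MORN2 for HINFP, and B4GALNT4 and TEX10 for ERI1. The differences were between 0.00617 and 0.0291. With only 4 libraries, between 96 genes (LSM10, 0.554% of those compared) and 392 genes (ZNF473, 2.26%) lay within 0.1 of a factor. That limit is wider than the differences of the named genes, and a similar profile was not particular to them. No histone gene was among the named ones, which is no separate result, since every tested histone gene had a higher ratio in untreated replicate 2 than every factor.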

How the data were processed

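RNA-seq counts of 4 libraries labelled as HepG2 were used, 2 untreated and 2 treated with doxorubicin, grouped by their titles. For the treated libraries the tag for treatment refers to a miRNA experiment instead, and the titles were followed. Per the labels and methods, the authors trimmed reads with Cutadapt, mapped them with HISAT2 (hg38), counted reads per gene with HTSeq and deposited raw whole-number counts without normalization. The file headers name GENCODE release 31, and their layout (a comment line, then a Geneid column and one named for the alignment file) is that of featureCounts, so which counter made them, and how it treated reads of overlapping or multi-copy genes, is uncertain. Tool versions and the use of strand are not given in the sources used here, so overlapping genes and near-identical copies can share reads.

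The counts were tested with edgeR 4.0.16 under R 4.3.3, by glmQLFit (legacy=FALSE) and glmQLFTest after filterByExpr and TMM, with Benjamini-Hochberg adjustment over 17479 genes. Calls needed both an adjusted p-value under 0.05 and a fold of 1 or more on the log2 scale, in either direction. The tests were tried on simulated counts. In fits with 1 library in a group, that library is assumed to vary like the other group. CPM used library totals, and log2 ratios of untreated replicate 2 carry no test, because that library was singled out by earlier results. Annotation came from GENCODE release 44, matched for 84.7% of tested genes, 759 symbols of the whole table by older names. Python 3.11.15, pandas 2.3.3, NumPy 2.4.6 and SciPy 1.17.1 were used.

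The factors, gene lists and tests were chosen with earlier results of these data known. The genes named are the 8 factors, the most abundant gene of each list, the 3 most abundant histone genes, the 2 genes most like each factor and genes that overlap a factor or start within 1000 bases of it. Others (HIST1H4I, HIST1H3A, HIST3H3, CPSF2, CSTF2T, CCNE2, POU2F1, TUT4, LSM2, NASP, SNORD3A, RMRP, TERC, RNU4ATAC, ALB and other cell type markers) were named after their values were seen. The alternatives were the exact test, DESeq2 1.42.0, RLE factors, library size alone, no filter, the replicate number as a block and each library left out in turn. Totals gave a floor of 0.0827 to 0.109 CPM for 3 counts, and intervals cover counting error alone.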

Additional observations from a re-analysis of the deposited data

How the results depend on the processing

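With all 4 libraries the quasi-likelihood test called 0 genes and 0 of the 8 factors, also with RLE factors, library size alone and no filter. The exact test called 38 genes (35 higher and 3 lower in doxorubicin) and DESeq2 89 (46 and 43), the cause of which was not tested. With the replicate block 20 genes were called (16 and 4) and 0 of the 8 factors. Same-numbered libraries had a correlation of 0.0219 in their deviations from the group means, and with 2 pairs they were taken to share only a number. With each library left out, between 0 and 7173 genes were called (0 to 3745 higher, 0 to 3428 lower) and between 0 and 1 of the factors, the highest values being those without untreated replicate 1. Without untreated replicate 2, 871 genes were called (772 and 99).

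Of 80 log2 fold changes of the factors under alternatives, 5 changed sign. With each library left out these ranged from -0.0016 to 0.43 for SLBP, from -0.68 to 0.26 for HINFP, from -0.12 to 0.59 for ERI1 and from -0.55 to 0.48 for LSM10. The sign changed without untreated replicate 2 for SLBP, HINFP and ERI1 and without untreated replicate 1 for LSM10, which was also at 0.023 with library size alone. With TMM-scaled CPM, chosen after seeing the data, 1 factor was higher in both doxorubicin libraries and 2 were lower. The lowest factor counts were 180 for NPAT in untreated replicate 2 and 320 for LSM11 in doxorubicin replicate 2. For LSM11 the counting intervals of doxorubicin replicate 2 (10.37 to 12.95 CPM) and untreated replicate 1 (12.05 to 14.44 CPM) overlapped, so that difference was not resolved at this depth.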
